A study of Auxenochlorella pyrenoidosa with 12 samples.

Results

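In Auxenochlorella pyrenoidosa, a unicellular green alga, 74 of 16413 assembled RNA features were several-fold higher in cultures with 0.5 g/L NaNO3 than in cultures with more nitrate or with none. They were chosen by a rule on group means in CPM, which is counts per 1000000 of the library total. A member had a mean of at least 5 CPM in the 0.5 g/L group, at least 3 times each of the other 3 group means, and a mean without nitrate within 1.5-fold, either way, of the baseline. The baseline is the average of the means at 1.5 and 1 g/L. The peak at 0.5 g/L and the return to the baseline at 0 g/L are therefore how the features were found and are given as a description.

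RNA of the strain labelled SHOU-1002 was sequenced from 4 groups of 3 libraries, all grown with NaNO3 as the stated variable: N1.5 at 1.5 g/L, which the study calls the control, N1 at 1 g/L, N0.5 at 0.5 g/L and N0 at 0 g/L. Libraries were made from poly(A)-selected RNA and hold 22027761 to 24383226 estimated counts. When the cells were harvested, at what density and in which batches was not stated in what was used here. The libraries of a group are described as biological repetitions, without saying that each came from its own culture, so p-values measure the spread between these libraries, which may be partly technical.

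Green algae take up nitrate through transporters, reduce it to nitrite and then to ammonium, and build the ammonium into glutamine and glutamate. When nitrogen runs short they recycle nitrogen-rich proteins and pigments and store carbon as starch and triacylglycerol, the lipid that the study's title refers to. The files do not pair the features with gene names or sequences, so which of the members belong to these processes was not analysed here, and the label of species could not be checked against marker genes. Members are described by rank, level, length and pattern, and at most 4 are named.

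The 74 members had 74 distinct gene parts in their assembly names. The names end in a number from 1 to 4 whose meaning was not stated. Each of the 16413 features had its own combination of gene part and final number, so members with the same ending could not share a gene part. Whether the distinct names stand for separate genes was therefore not shown. Of the members, 30 (40.5%) ended in 3 and 5 (6.76%) in 2, while among the 10922 features at 5 CPM or more in N0.5 these shares were 25.8% and 23.9%. The endings 1 and 4 stood at 28.4% and 24.3% of members, against 28.5% and 21.8%. A member's name without its last number recurred in 12 features outside the list, and 0 of these were 3-fold or more above every other group in N0.5. Whether a shared name means a shared gene is not known, as the meaning of the number was not stated.

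Lengths were read from the values. Dividing counts by FPKM (counts per kilobase of feature and per 1000000 counts) gave an implied length in each library. The median over the libraries that gave a length was taken for each feature. For the members, these libraries stayed within 0.827% of that median. The implied lengths could not be checked against sequences and may differ from the assembled lengths. The median member length was 2033 bases, with quartiles of 1496 and 2967 and a range of 424 to 10723. Features at a very low FPKM in every library gave no length and are left out of the medians. Among features with a length, the median was 1679 bases for those at 5 CPM or more in N0.5. It was 1323 bases without that limit on level, and 46 of the 74 members were above 1679. The features raised in N0.5 that did not return to the baseline had medians of 1975 and 1647 bases. The differences in length and in name ending were not tested.

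**Figure D1:**
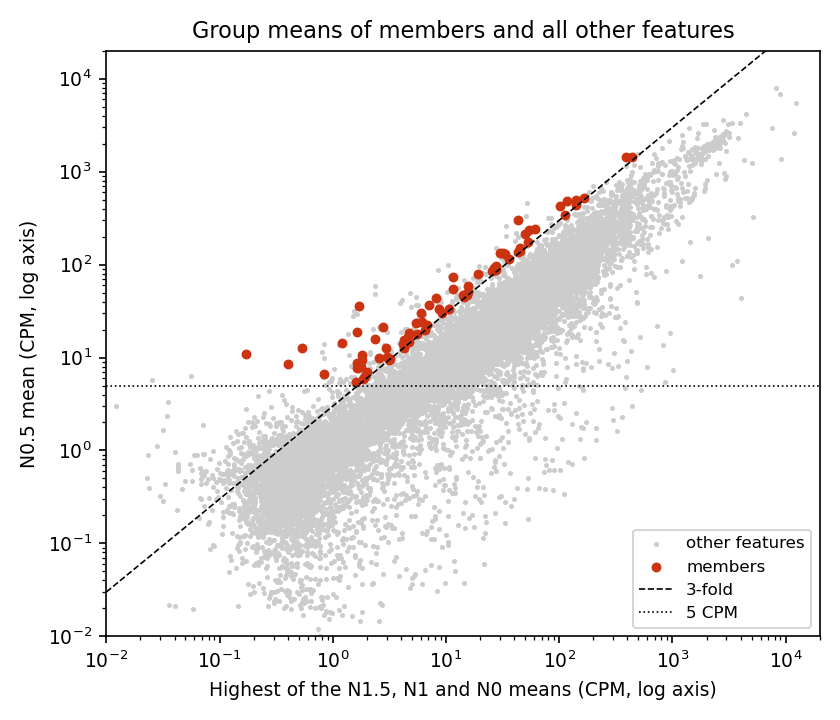
Each point is a feature, with its N0.5 mean in CPM on the vertical log axis and the highest of its N1.5, N1 and N0 means on the horizontal log axis. The dashed line marks 3-fold and the dotted line 5 CPM, 114 features at or under 0.01 CPM on an axis are not drawn, and the 74 members lie above both lines by the rule, most of them close to the 3-fold line.

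By choice, the members together took a larger share of counts in N0.5 than in the other groups. They held 0.907, 0.919 and 0.931% of the counts in N0.5 replicates 1, 2 and 3. Their share was 0.234, 0.218 and 0.226% in the N1.5 libraries and 0.227, 0.238 and 0.241% in the N1 libraries. Without nitrate it was 0.194, 0.208 and 0.215%. In RNA from a whole culture, a higher level in every cell and in a part of the cells cannot be told apart. The share in N1, 0.235% ± 0.0075 (SD, n = 3), and in N1.5, 0.226% ± 0.0082, is the one pair whose difference the rule did not use. The groups overlapped, since N1 replicate 1 was below N1.5 replicate 1, and a two-sided exact permutation test gave p = 0.2. As a share of summed FPKM the groups did not overlap, with 0.114, 0.114 and 0.12% in N1 above 0.11, 0.102 and 0.108% in N1.5 (exact permutation p = 0.1). The smallest p that 3 against 3 allows is 0.1, so neither test could pass 0.05 and no call is made.

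In the 9 libraries outside N0.5 the median member was near one level. The rule kept these groups well below N0.5 and N0 near the baseline, so this is a description. Single members differed more, as given below for N1 against N1.5. The median member stood at 20.5 to 24.3% of its own N0.5 mean in the N1.5 libraries, at 20.6 to 23.6% in N1 and at 20.2 to 22.2% in N0. The lowest of the 3 other groups was N0 for 30 members, N1.5 for 24 and N1 for 20. N0 was below the baseline for 41 members and above it for 33, and 38 members were within 1.2-fold of it. These counts are in CPM by library total. In the edgeR fit, scaled by TMM, the median log2 fold change of the members in N0 against N1.5 was 0.13. The rule bounded the N0 level and the scaling moves it, so nothing is read from these counts.

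**Figure D2:**
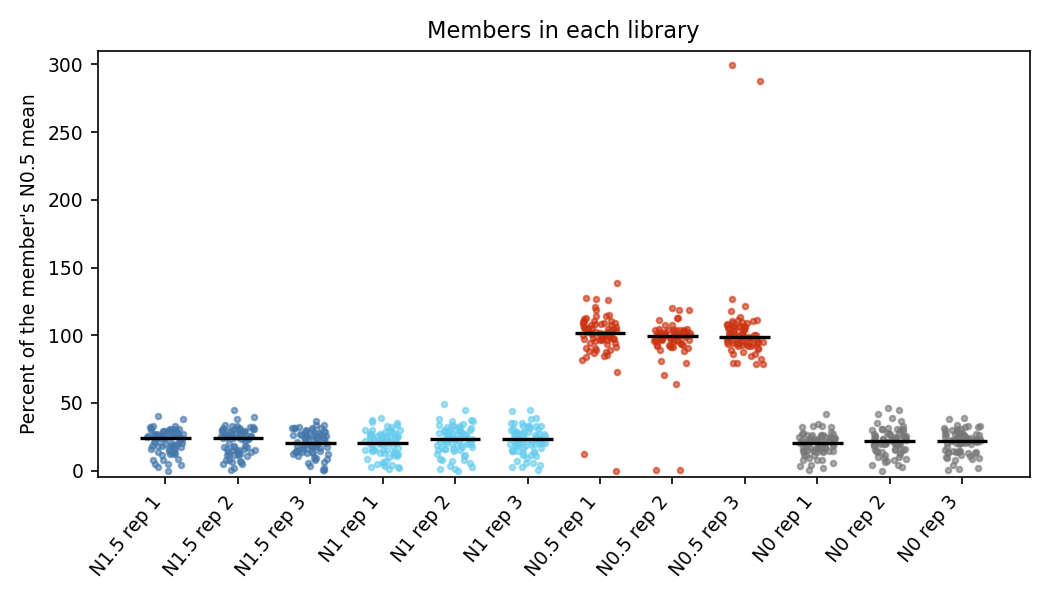
Each point is 1 of the 74 members in 1 of the 12 libraries, as a percentage of that member's N0.5 mean, and the black bar is the median of the library. The N0.5 medians lie at 98.8 to 102% and those of the other libraries at 20.2 to 24.3%, and 2 members stand far above the rest in N0.5 replicate 3.

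The peak was seen in all 3 N0.5 libraries for nearly every member. The lowest N0.5 library was above the highest of the other 9 libraries for 72 of the 74, a pattern found in 19.6% of the 15429 features tested; the rule used this contrast, so nothing is read from the count. The median gap between those 2 libraries was 2.83-fold, it was at least 2-fold for 69 members and at least 3-fold for 32, and the largest was 13.8-fold. The coefficient of variation (CV, the SD as a percentage of the mean) between N0.5 libraries, which the rule did not use, had a median of 8.34%. It was under 10% for 46 members and under 20% for 64. The median CV of the same members was 12.3% in N1.5, 16.6% in N1 and 16.3% without nitrate, at lower counts. Over features at 5 CPM or more in N0.5 the median CV in N0.5 was 5.74%.

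Applying the rule without 1 N0.5 library and reading the library left out gave values that had no part in the choice, although the other 9 libraries did. Without replicate 1 the rule found 74 features, 70 of them members; in replicate 1 their median was 3.78 times the highest other group mean, and 61 reached 3-fold and 73 reached 2-fold. Without replicate 2 it found 75 features, with a median of 3.51 in replicate 2, where 66 reached 3-fold and 72 reached 2-fold. Without replicate 3 it found 74, with a median of 3.53 in replicate 3, where 60 reached 3-fold and 73 reached 2-fold. Between 1 and 2 features per library left out were under 1.5-fold.

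The return to the baseline was read in the same way. Without N0 replicate 1 the rule found 70 features, of which 58 were within 1.5-fold of the baseline in that library and 65 within 2-fold. Without N0 replicate 2 these were 55 and 66 of 71, and without N0 replicate 3 they were 56 and 69 of 75. In N0 replicate 1, 1 of these features was above the baseline by more than 1.5-fold and 11 were below it by more than that. In replicate 2 these were 7 above and 9 below, and in replicate 3 they were 10 and 9.

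Few features held much of the members' summed N0.5 level of 9191 CPM, which is not scaled to length. The top 2 by CPM made up 31.2% of it, the top 5 made up 47.6% and the top 10 made up 66.6%. These shares were not compared with those in other sets of features. The N0.5 CV of the top 10 was between 1.22 and 11.4%.

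The member with the highest N0.5 level in CPM was TRINITY_DN7343_c0_g1_i8_3, of 10723 bases, which is also the longest. Its level was 470, 431 and 412 CPM in the N1.5 libraries, and 346, 412 and 395 CPM in those of N1. The N0.5 libraries held 1448, 1451 and 1419 CPM, and the N0 libraries 325, 362 and 381 CPM. The N0.5 libraries were close together and far above the rest, and N1 overlapped both N1.5 and N0. Every N0 library was below every N1.5 library in CPM by library total. In the edgeR fit, which scales libraries by TMM instead, N0 against N1.5 gave a log2 fold change of -0.12 (standard error 0.07). That difference did not pass the test (edgeR adjusted p = 0.178). The N0.5 mean was 3.29 times that of N1.5, 3.75 times that of N1 and 4.05 times that of N0. From N1.5 to N1 the log2 fold change of -0.17 (standard error 0.07) did not pass the test (edgeR adjusted p = 0.209).

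Per length, the order changed. The member ranked second by CPM, of 2078 bases, had the highest N0.5 level in FPKM, at 681 ± 37.2 (SD, n = 3). Elsewhere it had 178 ± 11.7 FPKM (N1.5), 188 ± 16.2 FPKM (N1) and 165 ± 28.0 FPKM (N0). The feature named above was the fourth by FPKM, at 133 ± 1.70 in N0.5 against 40.9 ± 2.80 in N1.5. Between them came the members ranked 5th and 9th by CPM, at 175 ± 18.8 and 166 ± 18.8 FPKM in N0.5. The median member had 14.8 FPKM in N0.5 and the lowest 2.73. The first 5 by FPKM made up 40.3% of the members' summed FPKM in N0.5.

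The height of the peak was mostly near the threshold. The N0.5 mean was 3 to 4 times the highest other group mean in 44 members, 4 to 6 times in 19, 6 to 10 times in 5 and 10 times or more in 6. The median was 3.73. Higher ratios went with lower baselines. The baseline enters the denominator, and at a low baseline only a high ratio reaches the rule's minimum of 5 CPM in N0.5. The 6 members with a baseline of 100 CPM or more had ratios of 3.00 to 3.66, and the 25 between 10 and 100 CPM had 3.07 to 7.09. For the 38 between 1 and 10 CPM they were 3.01 to 21.3, and for the 5 below 1 CPM 5.36 to 64.0. The largest ratio among members above 10 CPM at baseline belonged to the member ranked 9th by CPM. It stood at 38.4, 35.4 and 38.0 CPM in N1.5 and at 47.1, 38.3 and 43.4 CPM in N1, the highest of the other groups. In N0.5 it had 266, 314 and 333 CPM, 7.09 times the N1 mean, and in N0 35.01, 29.54 and 39.05 CPM.

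Members at a low baseline had the highest ratios, which the rule's minimum level in N0.5 favours. In the member ranked 54th by N0.5 level, with a ratio of 24.1, the level was 16.3, 11.3 and 10.8 CPM in N0.5 and 0.122 to 0.786 CPM in the other 9 libraries. The member ranked 35th was 2965 bases long. Its level was 1.72, 0.845 and 2.00 CPM in N1.5 and 0.986, 2.65 and 1.46 CPM in N1. In N0.5 it was 30.8, 37.6 and 40.3 CPM, and in N0 1.17, 1.47 and 1.62 CPM. Every N0.5 library was above every other library, and the mean was 21.3 times the highest of the other means. The member ranked 52nd had a like course, with 15.8, 13.3 and 13.97 CPM in N0.5 and 0.680 to 1.38 CPM in the other 9 libraries.

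The 2 members whose N0.5 libraries did not separate from the rest owed their place to N0.5 replicate 3 alone. The largest ratio of all, 64.0, was that of TRINITY_DN7372_c4_g1_i6_3, of 1104 bases. It had an estimated count of 737 in N0.5 replicate 3, which is 32.9 CPM, a count of 0.939 in replicate 2 and 0 in replicate 1. In the other 9 libraries its counts were between 0 and 7.58. A count of 0 allows up to 3 counts, or 0.123 to 0.136 CPM over the libraries, a limit for counting error alone, because reads that carry no molecular identifier are not independent molecules. The filter on low counts left it out of the fit, and it is the only member without a test. The member ranked 65th, of 1105 bases, had 1.05, 0.0423 and 24.6 CPM in N0.5 and at most 0.654 CPM elsewhere. Its log2 fold change of 4.41 in N0.5 against N1.5 (edgeR adjusted p = 0.0105) was 0.51 without N0.5 replicate 3, with an edgeR adjusted p of 0.679. The CVs of these members in N0.5 were 173 and 162%, and the next highest was 33.7%.

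N0.5 replicate 3 held other features of this kind. In it, 7 features were at 5 CPM or more and at least 10 times every other library, against 1 such feature in N1.5 replicate 2 and 0 in each of the other 10 libraries. The 7 stood at 7.13 to 32.9 CPM in that library and at most at 1.05 CPM elsewhere, had lengths of 577 to 1541 bases, and 7 of 7 had names ending in 3. Their source was not tested. Without the 2 of them that are members, the median ratio of the N0.5 mean to the highest other mean was 3.64, and the other members held 99.79% of the members' counts in N0.5.

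**Figure D3:**
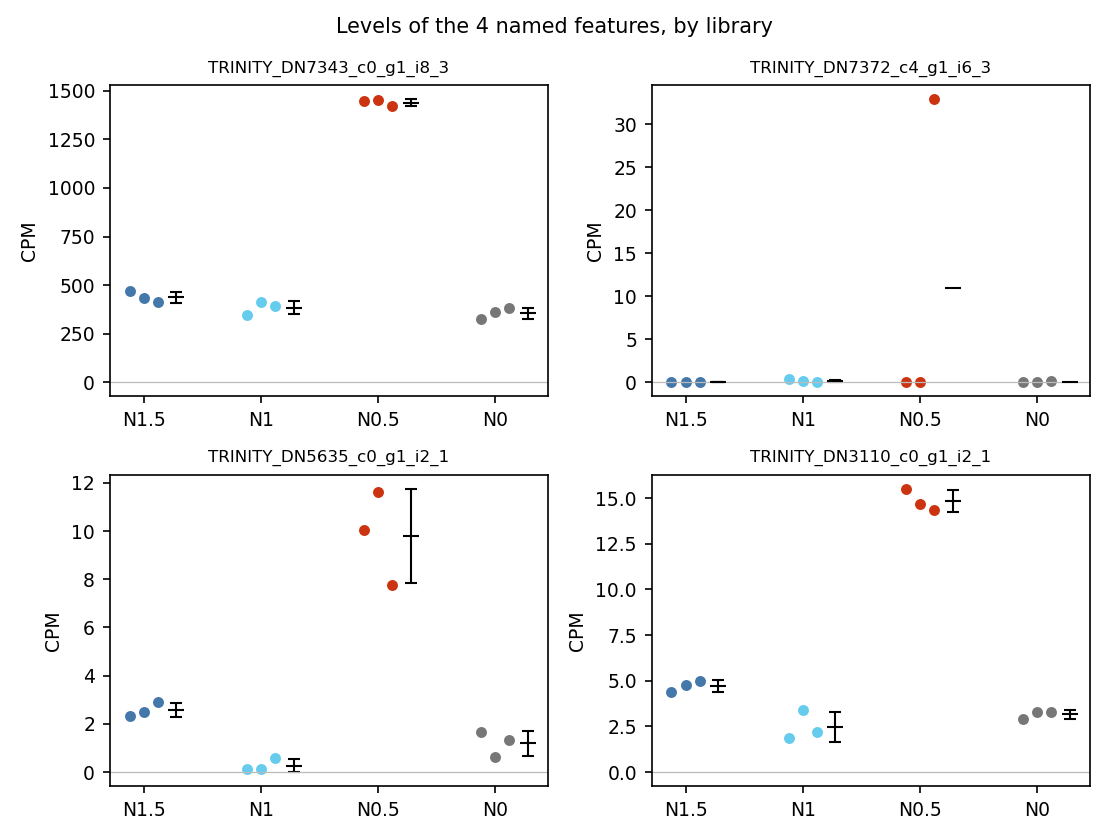
Each panel shows 1 named feature, with CPM on the vertical axis, 1 coloured point per library in the groups N1.5, N1, N0.5 and N0, and the group mean with its SD (n = 3) in black, without the SD where it exceeds the mean. The first panel shows 3 N0.5 libraries together near 1439 CPM, the second a single N0.5 library at 32.9 CPM, and the lower panels N1 below N1.5.

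In the fits across all features, each of the 73 members tested was higher in N0.5 than in N1.5 by edgeR's quasi-likelihood test at an adjusted p under 0.05, where 61.9% of all features tested were called, 30.6% higher and 31.3% lower. The 73 were also higher in N0.5 than in N1, where 60.4% of features were called, 29.1% higher and 31.3% lower. They were lower in N0 than in N0.5, where 67.3% were called, 34.2% higher and 33.1% lower. The rule used these comparisons and nothing is read from the counts. The log2 fold changes of the members were 1.68 to 4.93 in N0.5 against N1.5, 1.66 to 5.34 in N0.5 against N1 and -5.27 to -1.51 in N0 against N0.5.

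N1 against N1.5, the step from full to mildly reduced nitrate, was not used by the rule, although the rule used the mean of each group. Of the 73 members tested, 4 rose and 6 fell in N1 (edgeR adjusted p under 0.05). These 10 are 13.7%, and 7.58% of all features tested were called in that comparison, 3.97% higher and 3.6% lower. The balance of directions turned with the fit: it was 7 higher and 4 lower with replicate number as a block, 8 and 6 without N1 replicate 2, 7 and 7 with DESeq2, and 4 and 4 or 5 and 4 in the limma fits of FPKM values. The share was not tested against the background, and 12.7 and 18.7% were called among features raised in N0.5 whose N0 level stayed above or ended below the baseline. The median log2 fold change of the members was 0.09, with quartiles of -0.19 and 0.27, and that of all features 0.01, with quartiles of -0.13 and 0.15. Separate N1 and N1.5 libraries were seen in 20 members, 8 higher and 12 lower in N1, and in 26.7% of all features. The count of members called was 4 without N1 replicate 3 and 5 with only the 6 libraries compared. The count over all features, 1169, became 612 or 722 when N1 replicate 3 or 1 was left out, and 644 or 689 when replicate 1 or 2 of N1.5 was.

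Of the 6 members that fell in N1, TRINITY_DN5635_c0_g1_i2_1 fell the most. It stood at 2.35, 2.48 and 2.91 CPM in N1.5 and at 0.124, 0.112 and 0.584 CPM in N1, the latter from counts of 2.87, 2.71 and 13.3. In N0.5 it reached 10.1, 11.6 and 7.75 CPM, and in N0 1.66, 0.627 and 1.31 CPM. The N1 and N1.5 libraries did not overlap. N1 was lower by a log2 fold change of -3.20, standard error 0.50 (edgeR adjusted p = 0.00144). This value was between -4.27 and -0.76 over the 14 alternatives, the smallest on the log2(FPKM + 1) scale. The N0.5 mean was 3.80 times that of N1.5 and 35.8 times that of N1.

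The next largest fall was that of TRINITY_DN3110_c0_g1_i2_1. It stood at 4.38, 4.75 and 4.99 CPM in N1.5, at 1.88, 3.42 and 2.17 CPM in N1, at 15.5, 14.7 and 14.3 CPM in N0.5 and at 2.88, 3.30 and 3.29 CPM in N0. The N1 libraries were all below those of N1.5. The log2 fold change in N1 was -0.91 with a standard error of 0.19 (edgeR adjusted p = 0.0112). The adjusted p was 0.0584 without N1 replicate 3 and 0.0767 with only the 6 libraries compared.

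A pair of more abundant members fell in N1 by less and with closer libraries. The member ranked 12th by N0.5 level stood at 51.2, 47.0 and 51.4 CPM in N1.5, at 28.0, 34.8 and 30.9 CPM in N1, at 221, 207 and 213 CPM in N0.5 and at 29.4, 33.1 and 31.7 CPM in N0. Its N1 and N0 libraries overlapped below N1.5, and in N1 the log2 fold change was -0.66, standard error 0.07, (edgeR adjusted p = 0.00011). The member ranked 19th had the same order: 35.5, 29.8 and 34.1 CPM in N1.5, 13.96, 22.02 and 18.54 CPM in N1, 144, 123 and 118 CPM in N0.5, and 15.3, 17.6 and 18.8 CPM in N0. Its log2 fold change in N1 was -0.85 with a standard error of 0.14 (edgeR adjusted p = 0.0019). Both were also below N1.5 in N0 by the edgeR test, within the 1.5-fold that the rule allows around the baseline. Over the 12 libraries, deviations of these members from their group means had a correlation of 0.92.

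The 4 members that rose in N1 were those ranked 10th, 17th, 30th and 64th. The largest rise was that of the 64th, from 0.456, 0.422 and 0.0679 CPM in N1.5 to 1.62, 1.86 and 1.45 CPM in N1, with 7.65, 10.5 and 8.35 CPM in N0.5 and 0.681, 1.74 and 0.965 CPM in N0. Its N1 libraries were all above those of N1.5, a log2 fold change of 2.43, standard error 0.48 (edgeR adjusted p = 0.0064). The 10th stood at 43.9, 33.5 and 51.8 CPM in N1.5 and at 60.3, 63.2 and 60.4 CPM in N1, a log2 fold change of 0.53 with a standard error of 0.12 (edgeR adjusted p = 0.0183). The 30th, at 9.13, 8.52 and 7.92 CPM in N1.5 and 11.7, 10.8 and 12.4 CPM in N1, rose with a log2 fold change of 0.46 and a standard error of 0.10 (edgeR adjusted p = 0.0136). It was at 12.8, 14.1 and 15.8 CPM in N0, so that every N0 library was above every N1 library. Of the 10 calls, 3 held in the same direction in all 14 alternatives, those of TRINITY_DN5635_c0_g1_i2_1 and of the members ranked 12th and 19th. The rises ranked 10th, 17th and 30th held in 10 of the 14, and that of the 64th in 13. The fall of TRINITY_DN3110_c0_g1_i2_1 held in 12, and the falls of the members ranked 33rd and 43rd each held in 5.

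**Figure D4:**
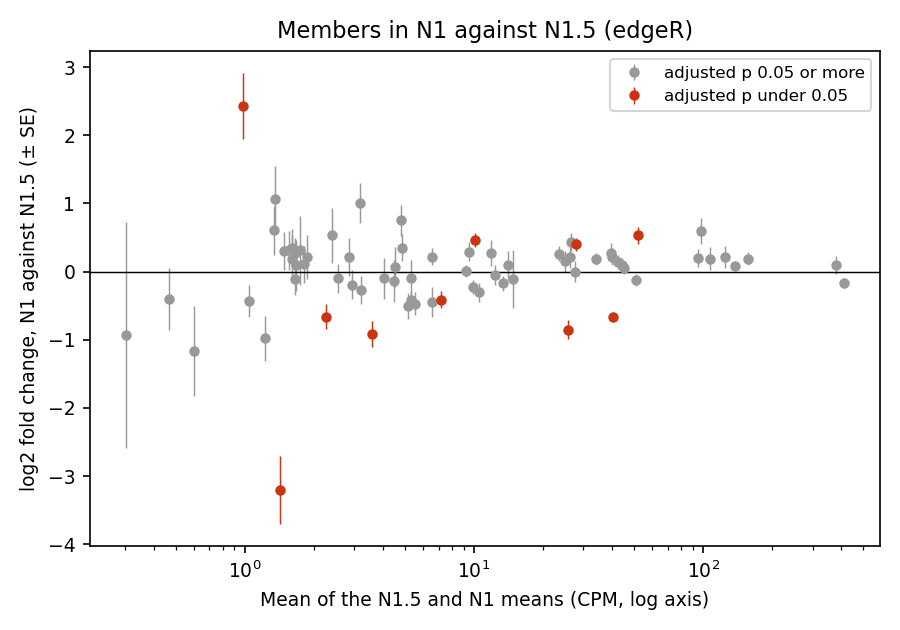
Each point is 1 of the 73 members tested, with the mean of its N1.5 and N1 means in CPM on a log axis and its edgeR log2 fold change in N1 against N1.5 with the standard error on the vertical axis. The 10 members with an adjusted p under 0.05 are red, 4 above and 6 below 0, and the members with the largest changes have baselines near 1 CPM.

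The rule bounded N0 against the average of the N1.5 and N1 means, and so only indirectly against N1.5. By edgeR, 11 members were called higher and 8 lower in N0, together 26.0% of those tested, where 57.8% of all features were called, 26.6% higher and 31.2% lower, and nothing is read from this. The balance of directions turned with scaling: it was 9 higher and 16 lower with library totals, and 6 and 15 or 7 and 15 in the fits of FPKM values. The called members had log2 fold changes between -0.77 and 2.04.

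The members are a part of a larger group raised in N0.5. At 5 CPM or more, 271 features were at least 3 times both N1.5 and N1 in N0.5. In N0, 109 of them were below the baseline by more than 1.5-fold, 79 were above it by more than 1.5-fold and 83 were within 1.5-fold, of which 74 are the members and 9 had an N0.5 mean under 3 times that of N0. The median N0.5 mean was 4.18 times that of N1.5 for the members, 4.68 times for those that ended below and 5.36 times for those that stayed above. Median levels in N1.5 were 6.29, 5.42 and 2.29 CPM in the same order. The share of names ending in 3 was 40.5% for the members, 35.8% for those that ended below and 11.4% for those that stayed above, and of names ending in 4 it was 24.3, 23.9 and 40.5%.

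**Figure D5:**
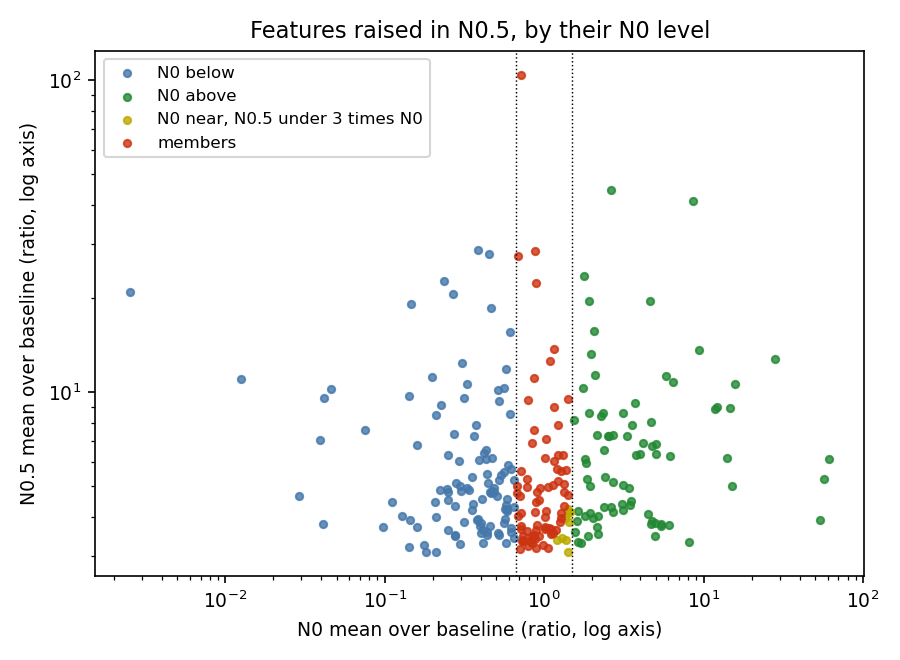
Each point is 1 of the 271 features raised in N0.5, with the N0 mean over the baseline on the horizontal log axis and the N0.5 mean over the baseline on the vertical log axis, and 3 features listed at 0 in N0 are not drawn. The members lie between the dotted lines at 1.5-fold either way, with 109 features at a lower and 79 at a higher N0 level. Their highest ratio was 1.42, and the nearest feature above the upper line was at 1.55. At the lower line these were 0.671 and 0.650.

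The members lay on a continuum with features just outside the rule. The lowest N0.5 mean among them was 5.52 CPM, and the nearest feature left out for its level had 4.59 CPM. The smallest ratio to the highest other group was 3.00 and the nearest ratio outside was 2.99. The ratio of N0 to the baseline reached 1.42 inside and 1.55 outside at the upper end, and 0.671 and 0.650 at the lower end.

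The members shared their pattern over the groups by choice. How they varied within groups was not used by the rule. Deviations of log2(CPM + 0.5) from the group means were correlated over the 12 libraries for each of the 2701 pairs of members. The median correlation was 0.04, and 2.00% of pairs reached 0.8. Over all pairs of features at 5 CPM or more in N0.5 the median was 0.06, and 2.03% reached 0.8. Pairs share their libraries and their depth, and the values are a description.

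Some single pairs of members, picked from the 2701 for their high correlation, followed each other closely. A correlation of 0.9 was reached by 0.444% of member pairs. Over pairs of features at 5 CPM or more in N0.5 it was reached by 0.367%, so such pairs are not particular to the members. The deviations of the members ranked 2nd and 5th by N0.5 level had a correlation of 0.98. The ratio of their CPM was between 2.8 and 4.99 over the 12 libraries. Those ranked 6th and 8th had 0.94, and the ratio of their CPM stayed between 1.08 and 1.36 over the 12 libraries. Both were high in N0 replicate 2, the first at 197 CPM against 112 and 114 CPM in the other N0 libraries and the second at 157 CPM against 92.5 and 88.9 CPM. Whether they share sequence, and so reads, was not analysed here.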

How the data were processed

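The estimated counts, as deposited by the authors, and the FPKM values, as deposited by the authors and scaled to feature length and library total, cover the same 16413 features in 12 libraries. The submitters' processing notes list Bowtie2 2.4.5, DESeq and Trimmomatic 0.40; how features were assembled and counted is not given in the sources used here. Near-identical features may have shared reads in the counting, so single features are uncertain. Members were found on CPM by library total. Rounded counts were tested with edgeR 4.0.16 (quasi-likelihood, TMM, filterByExpr by group, R 4.3.3) in 1 fit of all 12 libraries, with no covariate, in 5 comparisons, two-sided, with Benjamini-Hochberg adjustment over 15429 features. The fit was tested on simulated data. Standard errors are the log2 fold change divided by the square root of F. Alternatives were DESeq2 1.42.0, limma 3.58.1 on log2(FPKM + 1) and log2(FPKM + 0.1), other scalings and filters, and each library left out. The members, lists and tests were chosen with earlier results of these data known. Features named were the member highest in N0.5, that with the largest ratio of N0.5 to the other groups, and the 2 with the largest called falls in N1; where features have no gene names, others are given by rank only, chosen after their values were seen. Exact permutation tests used scipy 1.17.1.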

Additional observations from a re-analysis of the deposited data

How the results depend on the processing

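The number of members depended on the rule's limits more than on single libraries: it was 231 at 2-fold, 30 at 4-fold, 144 with a minimum of 1 CPM and 38 with a return within 1.2-fold, against 74. It was 84 with TMM-scaled CPM and 78 with FPKM, of which 66 each were members, and 69 to 76 without 1 library. Of the 74 members, 65 were found again without N0 replicate 1 or without N0 replicate 2, the lowest overlap. The highest was 73, without N1 replicate 3. In N1 against N1.5 the members called numbered 10, and 5 with only the 6 libraries compared. They numbered 4 to 14 without 1 library, 14 with DESeq2 (7 higher, 7 lower) and 11 with the replicate block (7 higher, 4 lower, against 4 and 6). Over all features the count of 1169 was 612 to 1320 without 1 library, and 612, 644, 689 and 722 without N1 replicate 3, N1.5 replicate 1, N1.5 replicate 2 and N1 replicate 1; the cause was not tested. Same-numbered libraries were not paired by the data (correlations of deviations from -0.064 to 0.0995 over 18 pairs), and the block left the members called in N0.5 against N1.5 at 72 of 73 and in N0 against N1.5 at 19. Of the other recomputed counts and shares, 163 stayed close to the reported value. Such counts were within 1.5 times the reported count, and such shares kept their direction and their side of the threshold. A count cannot change sign, and 0 of the recomputed shares did. The balance of directions did turn, among members called in N1 against N1.5 and among those called in N0 against N1.5. Leaving out the 2 members high in 1 N0.5 library was chosen after seeing the data; 10 members remained called in N1. The 5 members with a baseline under 1 CPM rest on few counts outside N0.5, which limits what differences could be detected there.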
